A study of Mus musculus with 9 samples.

Results

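Fatty acid uptake and β-oxidation were followed through 10 genes chosen by name: *Cd36*, *Cpt1b*, *Cpt2*, *Acadvl*, *Acadl*, *Acadm*, *Hadha*, *Hadhb*, *Ppara* and *Pdk4*. The choice was made with earlier results of these data known. They are 10 of the 14441 genes whose reads were recovered in all 3 deposited tables. The cells were neonatal rat ventricular cardiomyocytes (NRVMs), taken from Sprague Dawley rats aged 1 or 2 days and kept in culture with 3% serum for 48 h before infection. They received adenovirus at a multiplicity of infection of 50 that carried LacZ (a bacterial enzyme, the control), mouse Nrf1 or mouse Nrf2, 2 related stress-responsive transcription factors, so all groups were infected cells and no uninfected cells were compared. Each group held 3 libraries and nothing in the labels says whether they came from separate isolations of cells, so p-values measure only the spread between these libraries. The vectors used a cytomegalovirus promoter, which is not restricted to cardiomyocytes, and also carried a red fluorescent protein. By the paper's methods, RNA came from cells harvested 48 h after infection.

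Long-chain fatty acids are the main fuel of the adult heart, whereas the fetal heart relies more on glucose and lactate, and the genes of β-oxidation rise around birth. CD36 brings fatty acids across the plasma membrane, and the carnitine palmitoyltransferases, CPT1 on the outer and CPT2 on the inner mitochondrial membrane, carry them into the matrix as carnitine esters. There an acyl-CoA dehydrogenase matched to the length of the chain catalyzes the first step of each cycle, and for long chains the mitochondrial trifunctional protein, built from HADHA and HADHB, catalyzes the remaining steps. PPARα is a nuclear receptor that senses fatty acids and switches on most of these genes, and PDK4 turns off pyruvate dehydrogenase so that fat is burned in place of glucose.

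The libraries held between 7875296 and 11961502 reads assigned to the recovered genes of a table. *Nfe2l2*, which encodes Nrf2, had between 3399 and 3493 normalized reads in LacZ samples and between 67556 and 78771 in Nrf2 samples, a log2 fold change of 4.43 (limma, adjusted p = 1.39e-16). In these counts per gene, reads of the mouse transgene cannot be told apart from endogenous rat reads. In Nrf1 samples *Nfe2l2* lay between 2815 and 2894 (log2 fold change -0.28, limma, adjusted p = 3.65e-06). *Nfe2l1*, which encodes Nrf1, was not analysed here, so the overexpression of Nrf1 was not checked in these libraries. The summed level of 15 listed cardiomyocyte markers lay between 164638 and 189053 in LacZ samples, between 173995 and 175870 in Nrf1 samples and between 193647 and 196675 in Nrf2 samples. Of these 15 markers, 2 were upregulated and 4 downregulated with Nrf1 (median log2 fold change -0.21), the median with Nrf2 was 0.07, and 6 were higher in Nrf2 against Nrf1 (median 0.42), at the cutoffs given below. The summed level of 12 fibroblast markers was lower in both, between 123774 and 129901 in LacZ samples, 31653 and 34136 in Nrf1 samples and 64707 and 69953 in Nrf2 samples. In bulk RNA, fewer cells of a type and less RNA per cell cannot be told apart.

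Values below are normalized read counts, the reads of a gene divided by the library's size factor, with the libraries of a group given from the deepest to the shallowest. The order carries no replicate number, and levels of different genes are not comparable because gene length was not taken into account. A gene was called upregulated or downregulated when its fold change exceeded 1.5 and its adjusted p was below 0.05, and "rose" or "fell" is used where the adjusted p alone was below 0.05. All adjusted p-values are those of limma with Benjamini-Hochberg adjustment over every gene tested in the comparison.

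With Nrf1, *Acadvl*, *Cpt2* and *Cd36* were upregulated and none of the 10 genes was downregulated. These 3 of 10 stand against 28.0% of all 11364 genes tested that were called in either direction and 11.3% that were upregulated. At the adjusted p alone, 7 genes rose and 1, *Acadm*, fell, where 66.7% of all genes passed (34.4% higher and 32.3% lower). The 10 genes had a median log2 fold change of 0.21, and all genes tested one of 0.00447. With Nrf2, *Cpt2* alone was upregulated, where 18.4% of all 11487 genes tested were called and 9.0% were upregulated (9.45% downregulated). At the adjusted p alone 8 genes rose and none fell, with *Cpt1b* and *Pdk4* not passing, where 54.5% of all genes passed (28.6% higher and 26.0% lower). The median was 0.35, against -0.00116 over all genes tested. The same 3 LacZ libraries served in both comparisons.

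**Figure D1:**
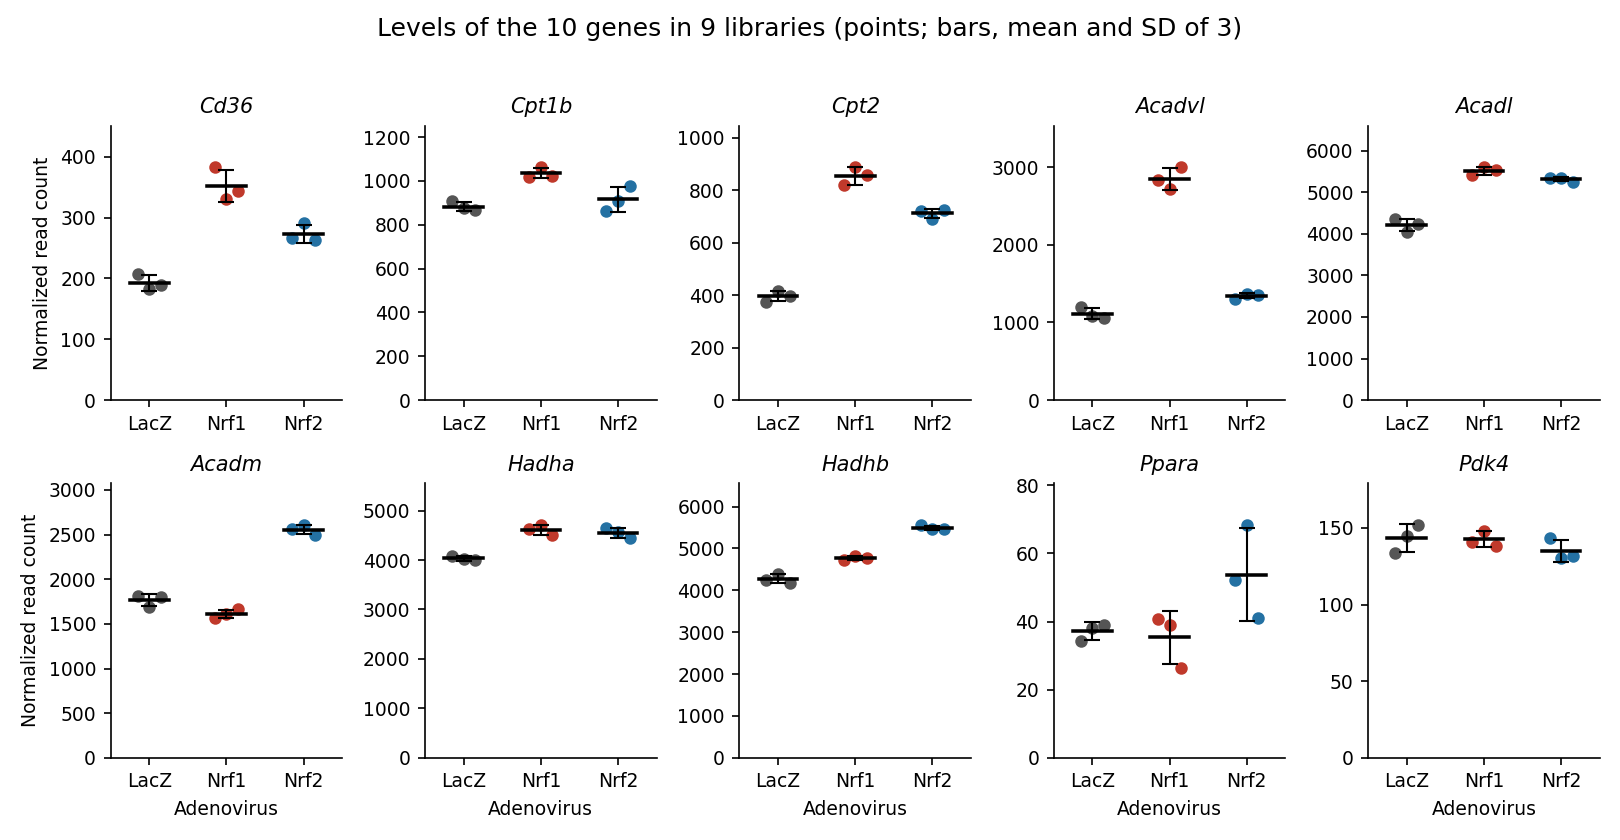
Normalized read counts of the 10 genes in LacZ, Nrf1 and Nrf2 samples on vertical axes that start at 0, with points for the 3 libraries of a group, horizontal bars for the mean and error bars for the SD. *Acadvl* in Nrf1 samples, between 2715 and 2997, lies above all LacZ and Nrf2 libraries, *Acadm* is highest in Nrf2 samples, and *Pdk4* overlaps in all 3 groups.

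The uptake gene was higher with both factors. *Cd36*, the membrane fatty acid translocase, had 208, 183 and 188 normalized reads in the LacZ libraries, 383, 331 and 343 in the Nrf1 libraries and 267, 290.5 and 263 in the Nrf2 libraries. The 3 groups did not overlap, and the order was Nrf1, Nrf2, LacZ. The group means were 193 ± 13.2, 352 ± 27.1 and 273 ± 14.9 (SD, n = 3). *Cd36* was upregulated 1.82-fold with Nrf1 (95% interval 1.605 to 2.06, adjusted p = 2.44e-07). With Nrf2 it rose 1.42-fold (1.25 to 1.602, adjusted p = 0.000146), which is below the fold-change cutoff, and it was lower with Nrf2 than with Nrf1 (log2 fold change -0.37 ± 0.072 SE, adjusted p = 0.000263). *Cd36* is also expressed by endothelial cells, macrophages and adipocytes. The summed level of 11 listed endothelial markers lay between 2229 and 2340.4 in LacZ samples, 1468 and 1547 in Nrf1 samples and 1438 and 1726 in Nrf2 samples. That of 13 leukocyte markers lay between 2387 and 3433, 1298 and 1367, and 1306 and 1437, and that of 5 adipocyte markers between 15.1 and 28.1, 8.0 and 13.7, and 11.6 and 13.1. Of the endothelial markers tested, 7 of 10 were downregulated with Nrf1, and 6 of 10 were downregulated and 1 upregulated with Nrf2. Of the leukocyte markers, 12 of 13 were downregulated with each factor. Only 1 adipocyte marker could be tested, and it was downregulated with Nrf1 and not called with Nrf2. No listed marker of these cell types was at 0 in all 9 libraries, and their part in the level of *Cd36* was not tested. The sum of 8 smooth muscle and pericyte markers lay between 21502 and 24044, 31211 and 31278, and 26680.2 and 28269, while 1 of 7 tested was upregulated and 3 downregulated with Nrf1 (median log2 fold change -0.36) and 1 was upregulated and 1 downregulated with Nrf2 (median -0.06).

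Of the carnitine shuttle genes in the set, *Cpt2* moved far more than *Cpt1b*. *Cpt2*, whose enzyme releases the acyl group inside the mitochondrion, had 375, 415 and 398 normalized reads in LacZ samples, 820.0, 887 and 859 in Nrf1 samples and 721, 690.3 and 723 in Nrf2 samples. All Nrf1 and Nrf2 libraries lay above all LacZ libraries, without overlap between any groups. *Cpt2* was upregulated 2.15-fold with Nrf1 (1.98 to 2.35, adjusted p = 1.55e-10) and 1.80-fold with Nrf2 (1.65 to 1.96, adjusted p = 2.62e-08). It was the only one of the 10 genes past both cutoffs with each factor, and its level with Nrf2 was below that with Nrf1 by a log2 fold change of -0.27 ± 0.045 SE (adjusted p = 5.37e-05).

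*Cpt1b* encodes the muscle form of CPT1, which catalyzes the rate-limiting step of the shuttle. It had 907, 876 and 865 normalized reads in LacZ samples, 1018, 1061 and 1024 in Nrf1 samples and 863, 907 and 975 in Nrf2 samples. The Nrf1 libraries lay above all others, whereas the Nrf2 libraries overlapped those of LacZ. It rose 1.17-fold with Nrf1 (1.09 to 1.25, adjusted p = 0.000397). With Nrf2 its ratio to LacZ was 1.04, with an interval from 0.959 to 1.12 (adjusted p = 0.421). The ratio of *Cpt2* to *Cpt1b* was raised by 0.88 ± 0.032 on the log2 scale in Nrf1 samples and by 0.79 ± 0.090 in Nrf2 samples over the mean of LacZ samples (SD, n = 3), where it spread by an SD of 0.10.

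The 3 acyl-CoA dehydrogenases of the set, which start the cycle on very long, long and medium chains, did not move together. *Acadvl*, the very long-chain enzyme of the inner mitochondrial membrane, had 1195, 1089 and 1059.7 normalized reads in LacZ samples, 2831, 2715 and 2997 in Nrf1 samples and 1308, 1364 and 1356 in Nrf2 samples. The lowest Nrf1 library stood far above the highest Nrf2 library, and the Nrf2 libraries stood closely above those of LacZ. *Acadvl* was upregulated 2.55-fold with Nrf1 (2.37 to 2.75, adjusted p = 2.70e-12), the largest change of the 10 genes, and lay at percentile 98.2 of the log2 fold changes of all genes tested. With Nrf2 it rose 1.21-fold (1.12 to 1.30, adjusted p = 0.000334).

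*Acadm*, the medium-chain enzyme, was highest with Nrf2, with 1813, 1684 and 1804 normalized reads in LacZ samples, 1562, 1607 and 1661 in Nrf1 samples and 2560.2, 2604 and 2498 in Nrf2 samples. All Nrf1 libraries lay below, and all Nrf2 libraries above, those of LacZ. With Nrf2 it rose 1.45-fold (1.36 to 1.54, adjusted p = 7.54e-08), just below the fold-change cutoff. With Nrf1 it was the one gene that fell, to 0.910 of LacZ (0.854 to 0.970, adjusted p = 0.0116). That small decrease did not pass without LacZ library 3 (adjusted p = 0.0509) or without Nrf1 library 1 (adjusted p = 0.0628), at log2 fold changes of -0.12 and -0.11.

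*Acadl*, the long-chain enzyme, had 4352, 4048 and 4242 normalized reads in LacZ samples, 5408, 5600.4 and 5550.1 in Nrf1 samples and 5344, 5351 and 5258 in Nrf2 samples. All Nrf1 and Nrf2 libraries lay above all LacZ libraries. *Acadl* rose 1.31-fold with Nrf1 (1.24 to 1.38, adjusted p = 1.35e-07) and 1.26-fold with Nrf2 (1.20 to 1.33, adjusted p = 2.04e-06).

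Set against each other within a library, which needs no normalization, these dehydrogenases separated the groups. The ratio of *Acadvl* to *Acadm* was higher by 1.49 ± 0.057 on the log2 scale in Nrf1 samples and lower by 0.26 in Nrf2 samples than the mean of LacZ samples (log2 ratio -0.26 ± 0.044, SD, n = 3), with an SD of 0.089 among LacZ libraries. The ratio of *Acadl* to *Acadm* went the same ways, by 0.52 ± 0.033 and -0.20 ± 0.017, with an SD of 0.018 among LacZ libraries. The ratio of *Acadvl* to *Acadl* was raised by 0.96 ± 0.080 in Nrf1 samples and was -0.07 ± 0.040 in Nrf2 samples, which overlapped the LacZ libraries. The ratios are a description, because they were formed after the levels were known.

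**Figure D2:**
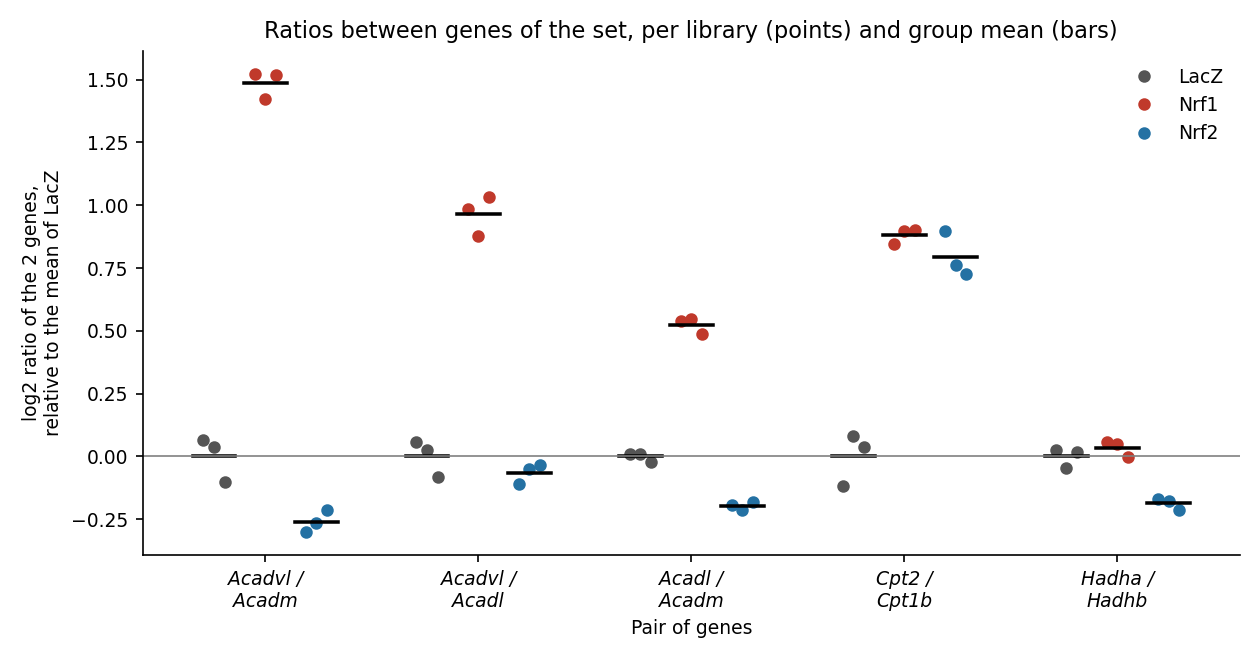
The log2 ratio of 2 genes of the set in each library, less the mean of LacZ samples, for 5 pairs of genes, with points for the 3 libraries of each group and black bars for the group means. The *Acadvl* to *Acadm* ratio lies near 1.49 in Nrf1 and near -0.26 in Nrf2 samples, whereas the *Cpt2* to *Cpt1b* ratio is raised in both.

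The subunits of the trifunctional protein showed only small changes. *Hadha*, the α-subunit, which carries the hydratase and the long-chain dehydrogenase, had 4083, 4017 and 3992 normalized reads in LacZ samples, 4633, 4703 and 4496 in Nrf1 samples and 4648, 4557 and 4447 in Nrf2 samples. The Nrf1 and Nrf2 libraries overlapped each other and lay above LacZ. *Hadha* rose 1.14-fold with Nrf1 (1.09 to 1.20, adjusted p = 0.000124) and 1.13-fold with Nrf2 (1.07 to 1.19, adjusted p = 0.000484). The ratio of Nrf2 to Nrf1 was 0.984, with an interval from 0.947 to 1.02 (adjusted p = 0.461).

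*Hadhb*, the β-subunit with the thiolase, had 4253, 4398 and 4183 normalized reads in LacZ samples, 4720.1, 4827 and 4781 in Nrf1 samples and 5555, 5467 and 5474 in Nrf2 samples. The groups did not overlap, and the order was Nrf2, Nrf1, LacZ. *Hadhb* rose 1.11-fold with Nrf1 (1.06 to 1.17, adjusted p = 0.000723) and 1.29-fold with Nrf2 (1.22 to 1.35, adjusted p = 6.13e-07). The log2 ratio of *Hadha* to *Hadhb* stood at 0.03 ± 0.033 in Nrf1 samples and at -0.19 ± 0.023 in Nrf2 samples, relative to LacZ.

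The regulators of the set were measured at lower depth. *Ppara* was covered by only 23 to 78 reads per library, with 34.2, 38.2 and 39.1 normalized reads in LacZ samples, 40.7, 39.0 and 26.3 in Nrf1 samples and 52.2, 68.2 and 40.9 in Nrf2 samples. The lowest Nrf2 library lay only just above the highest libraries of the other groups, and the SD of Nrf2 samples was 25.5% of their mean. With Nrf1 its ratio to LacZ was 0.935, with an interval from 0.681 to 1.28 (adjusted p = 0.709), and the sign of its log2 fold change turned to 0.10 without Nrf1 library 3. With Nrf2 it rose 1.41-fold (1.05 to 1.90, adjusted p = 0.0471), which did not hold without any single LacZ library or without Nrf2 library 1 or 2 (adjusted p between 0.0601 and 0.244). Without Nrf2 library 3 it became past both cutoffs, at a log2 fold change of 0.68 (adjusted p = 0.0145).

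*Pdk4*, the pyruvate dehydrogenase kinase that PPARα is known to switch on, had 134, 145 and 152 normalized reads in LacZ samples, 141, 148 and 138 in Nrf1 samples and 143, 130.4 and 132 in Nrf2 samples. All groups overlapped. The ratio to LacZ was 0.993 with Nrf1 (interval 0.856 to 1.15, adjusted p = 0.941) and 0.943 with Nrf2 (0.812 to 1.10, adjusted p = 0.501). Changes within these intervals, which are not adjusted for the number of genes tested, remain compatible with the 3 libraries per group.

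**Figure D3:**
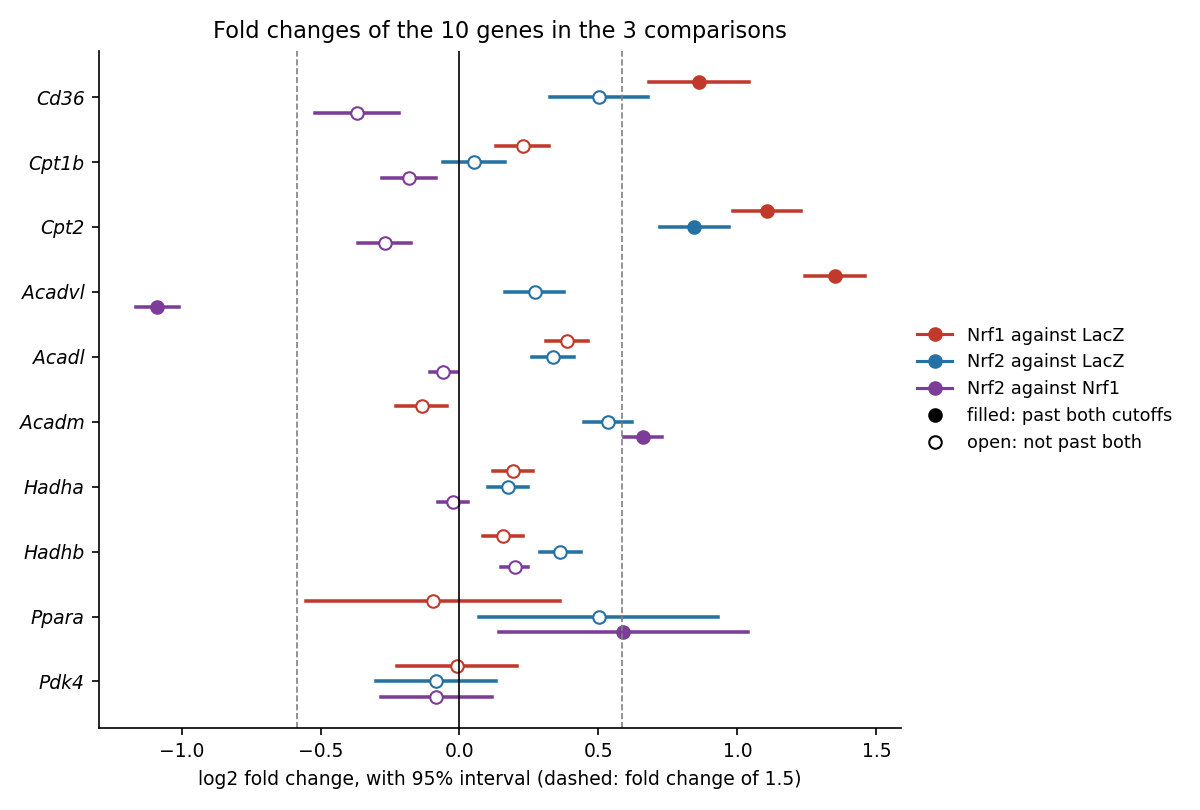
Log2 fold changes of the 10 genes (horizontal axis) with 95% intervals for Nrf1 against LacZ, Nrf2 against LacZ and Nrf2 against Nrf1, filled where the gene passed both cutoffs and with dashed lines at a fold change of 1.5. *Acadvl* reaches 1.35 with Nrf1 and -1.09 in Nrf2 against Nrf1, and the intervals of *Ppara* are the widest.

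Nrf2 and Nrf1 samples were then compared directly. *Acadm* was higher with Nrf2 than with Nrf1, 1.58-fold (1.51 to 1.66, adjusted p = 6.81e-12), and *Ppara* 1.51-fold (1.10 to 2.05, adjusted p = 0.0243), whereas *Acadvl* was lower, at 0.470 of Nrf1 (0.446 to 0.496, adjusted p = 4.04e-14). These 3 of 10 past both cutoffs compare with 15.6% of all 11342 genes tested (11% higher and 4.59% lower). *Acadvl* lay at percentile 0.89 of all log2 fold changes. At the adjusted p alone, 5 genes were higher with Nrf1 (*Cd36*, *Cpt1b*, *Cpt2*, *Acadl* and *Acadvl*), 3 were higher with Nrf2 (*Acadm*, *Hadhb* and *Ppara*), and *Hadha* and *Pdk4* did not pass, where 58.9% of all genes passed (28.8% higher and 30.1% lower). *Cpt1b* differed by a log2 fold change of -0.18 ± 0.046 SE (adjusted p = 0.00229) and *Hadhb* by 0.20 ± 0.023 SE (adjusted p = 6.81e-07). The difference of *Acadl* was small, -0.06 ± 0.023 SE (adjusted p = 0.0387), and did not pass without Nrf1 library 2 or 3 or without any single Nrf2 library (adjusted p up to 0.14), nor in 1 fit of all 9 libraries (adjusted p = 0.17). The call of *Ppara* was lost without Nrf1 library 3, without Nrf2 library 1 or without Nrf2 library 2, with log2 fold changes of 0.39, 0.60 and 0.40 and adjusted p of 0.123, 0.0571 and 0.146. The 10 genes had a median log2 fold change of -0.07, against -0.00774 over all genes tested.

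The rest of the pathway was described with 10 lists of 132 other genes, each chosen by function. They were chosen with earlier results of these data known, so the counts describe these genes and do not test the pathway. Of the 114 genes tested with Nrf1, 23 were upregulated and 5 downregulated, with a median log2 fold change of 0.07, where 11.3% of all genes tested were upregulated and 16.7% downregulated. Of the 115 tested with Nrf2, 12 were upregulated and 4 downregulated, with a median of 0.16, where the shares of all genes were 9.0% and 9.45%. When libraries were scaled to total reads, these became 18 and 8 with Nrf1 and 7 and 5 with Nrf2. In Nrf2 against Nrf1, 7 of 114 were higher and 4 lower, with a median of 0.05, where 11% of all genes tested were higher and 4.59% lower. The counts of each list below stand against these same shares of all genes.

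Uptake and binding genes went in both directions. Of 10 tested, 2 were upregulated and 2 downregulated with Nrf1 (median -0.11), and 1 was downregulated with Nrf2 (median -0.19). *Fabp3*, the fatty acid-binding protein of heart muscle, rose from 3343 ± 348 normalized reads in LacZ samples to 5377 ± 224 in Nrf1 samples (SD, n = 3; log2 fold change 0.69, adjusted p = 4.88e-08), and *Slc27a4*, a fatty acid transport protein, rose by 0.78 (adjusted p = 6.87e-10). With Nrf2, *Fabp3* had 0.57 and *Slc27a4* 0.38 (adjusted p = 1.33e-06 and 1.99e-05), below the fold-change cutoff. *Fabp5*, the epidermal binding protein, fell from 974 ± 37.5 to 314 ± 20.7 with Nrf1 (-1.63, adjusted p = 2.97e-12) and had 915 ± 7.36 in Nrf2 samples (-0.09, adjusted p = 0.122). *Slc27a3* fell with both, by 1.25 and 0.85 on the log2 scale (adjusted p = 2.28e-09 and 6.45e-08). Of the fibroblast markers, 12 of 12 were downregulated with Nrf1, and 9 of 12 were downregulated and 1 upregulated with Nrf2. Their part in these decreases was not tested.

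Among acyl-CoA synthetases and thioesterases, 2 of 9 were upregulated with Nrf1 (median 0.07) and 2 of 10 with Nrf2 (median 0.36), and none was downregulated. *Acss1*, the mitochondrial acetyl-CoA synthetase, had 18.1 ± 3.47 normalized reads in LacZ samples, 48.8 ± 8.60 in Nrf1 samples and 148 ± 18.1 in Nrf2 samples. Its log2 fold change was 1.40 with Nrf1 (adjusted p = 6.51e-05) and 3.01 in Nrf2 samples (adjusted p = 5.61e-09). *Acsl1*, the main long-chain acyl-CoA synthetase of the heart, was upregulated with Nrf2 (0.59, adjusted p = 3.44e-07) and *Acot2*, a mitochondrial thioesterase, with Nrf1 (0.59, adjusted p = 9.15e-05). Both passed the fold-change cutoff only narrowly. *Acsl1* had 0.19 with Nrf1 (adjusted p = 0.00368), and *Acot2* had 0.54 with Nrf2 (adjusted p = 0.00035), just below the fold-change cutoff.

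Of the other genes of the carnitine shuttle, 3 of 9 were upregulated and 1 downregulated with Nrf1 (median -0.26), and 2 were upregulated and 1 downregulated with Nrf2 (median -0.09). *Slc25a20*, the carnitine-acylcarnitine carrier that hands its cargo to CPT2, rose from 591 ± 35.2 to 949 ± 17.8 normalized reads with Nrf1 (0.68, adjusted p = 2.12e-08). *Crat*, carnitine acetyltransferase, rose by 0.64 (adjusted p = 2.73e-09). With Nrf2, *Slc25a20* had 0.44 and *Crat* 0.20 (adjusted p = 1.53e-05 and 0.00173), below the fold-change cutoff. *Cpt1a*, the liver form of CPT1 that the newborn heart also uses, was upregulated with Nrf2, from 789 ± 44.6 to 1209.9 ± 28.5 (0.62, adjusted p = 1.46e-07), while its muscle counterpart *Cpt1b* had a log2 fold change of 0.05. With Nrf1, *Cpt1a* had 0.13 (adjusted p = 0.0315). *Cpt1c*, the form of neurons, fell by 0.70 and 0.65 (adjusted p = 9.48e-06 and 3.59e-05). *Slc22a4*, a carnitine and ergothioneine transporter, was upregulated with both, with log2 fold changes of 1.39 and 2.17 (adjusted p = 0.00656 and 9.98e-05) from a mean of only 5.11 normalized reads in LacZ samples.

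The other enzymes of mitochondrial β-oxidation counted 3 upregulated and 1 downregulated of 18 with Nrf1 (median 0.06), and 1 upregulated of 18 with Nrf2 (median 0.16). Of all genes tested, 11.3% were upregulated and 16.7% downregulated with Nrf1, and 9.0% and 9.45% with Nrf2. *Hadh*, the short-chain hydroxyacyl-CoA dehydrogenase, rose from 249 ± 17.2 to 601 ± 11.3 normalized reads with Nrf1 (1.27, adjusted p = 1.96e-10) and had 274 ± 17.7 with Nrf2 (0.14, adjusted p = 0.164). *Acad9*, a relative of *Acadvl* that serves mainly in the assembly of respiratory complex I, was upregulated with Nrf1 (0.89, adjusted p = 2.06e-09), as was *Acaa2*, the medium-chain thiolase (0.77, adjusted p = 8.69e-08). With Nrf2, *Acad9* had 0.57 and *Acaa2* 0.55 (adjusted p = 1.84e-06 and 1.39e-05), just below the fold-change cutoff. *Eci1*, an enoyl-CoA isomerase, fell by 0.65 with Nrf1 (adjusted p = 7.74e-06) and had -0.18 with Nrf2 (adjusted p = 0.0664). *Etfa*, a subunit of the flavoprotein that takes electrons from every acyl-CoA dehydrogenase, was the one gene upregulated with Nrf2 (0.59, adjusted p = 7.85e-08). It passed the fold-change cutoff only narrowly, and had 0.38 with Nrf1 (adjusted p = 3.98e-06).

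In the peroxisome, which shortens very long chains, 4 of 16 genes were upregulated with Nrf1 (median 0.40) and 1 with Nrf2 (median 0.22). *Hsd17b4*, a bifunctional enzyme of the peroxisomal cycle, rose from 586 ± 62.1 to 969 ± 28.4 normalized reads with Nrf1 (0.73, adjusted p = 9.68e-08), *Ech1*, a dienoyl-CoA isomerase, rose by 0.69 (adjusted p = 1.40e-07), and *Decr2*, the peroxisomal dienoyl-CoA reductase, by 1.11 (adjusted p = 7.78e-06). With Nrf2, *Hsd17b4* had 0.43, *Ech1* 0.30 and *Decr2* 0.36 (adjusted p = 0.000132, 0.000798 and 0.0822), below the fold-change cutoff. *Amacr*, the racemase for branched chains, was the gene upregulated with Nrf2, from 95.9 ± 4.89 to 245 ± 18.5 (1.35, adjusted p = 5.04e-08). With Nrf1 it had 0.57 (adjusted p = 0.000333), just below the fold-change cutoff.

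Of 17 nuclear receptors and coactivators, 3 were upregulated with Nrf1 (median -0.17), and 1 was upregulated and 1 downregulated with Nrf2 (median -0.16). *Ppard*, the PPAR that is abundant in muscle, rose from 364 ± 25.6 normalized reads to 557 ± 27.9 with Nrf1 (0.61, adjusted p = 1.03e-06) and to 705 ± 24.0 with Nrf2 (0.96, adjusted p = 1.92e-08). *Pparg* (0.74, adjusted p = 0.00111) and *Thrb* (0.59, adjusted p = 0.000107), a thyroid hormone receptor, were upregulated with Nrf1. *Thrb* passed the fold-change cutoff only narrowly, at 1.50045-fold. With Nrf2, *Pparg* had 0.26 and *Thrb* 0.34 (adjusted p = 0.232 and 0.00886). *Klf15*, a transcription factor that drives lipid use in the heart, was downregulated with Nrf2 (-0.63, adjusted p = 0.000888). With Nrf1 it had -0.57 (adjusted p = 0.00121), just short of the fold-change cutoff. At the adjusted p alone, 7 of these 17 genes fell and 4 rose with Nrf1, where 32.3% of all genes fell and 34.4% rose, and 8 fell and 4 rose with Nrf2, where 26.0% fell and 28.6% rose. Among them, below the fold-change cutoff, *Esrra* had -0.50 and -0.33 (adjusted p = 1.38e-07 and 3.61e-05) with Nrf1 and Nrf2. *Ppargc1a* had -0.41 and -0.42 (adjusted p = 5.84e-05 and 3.57e-05), and *Ppargc1b* had 0.51 and 0.58 (adjusted p = 0.000211 and 0.000107).

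**Figure D4:**
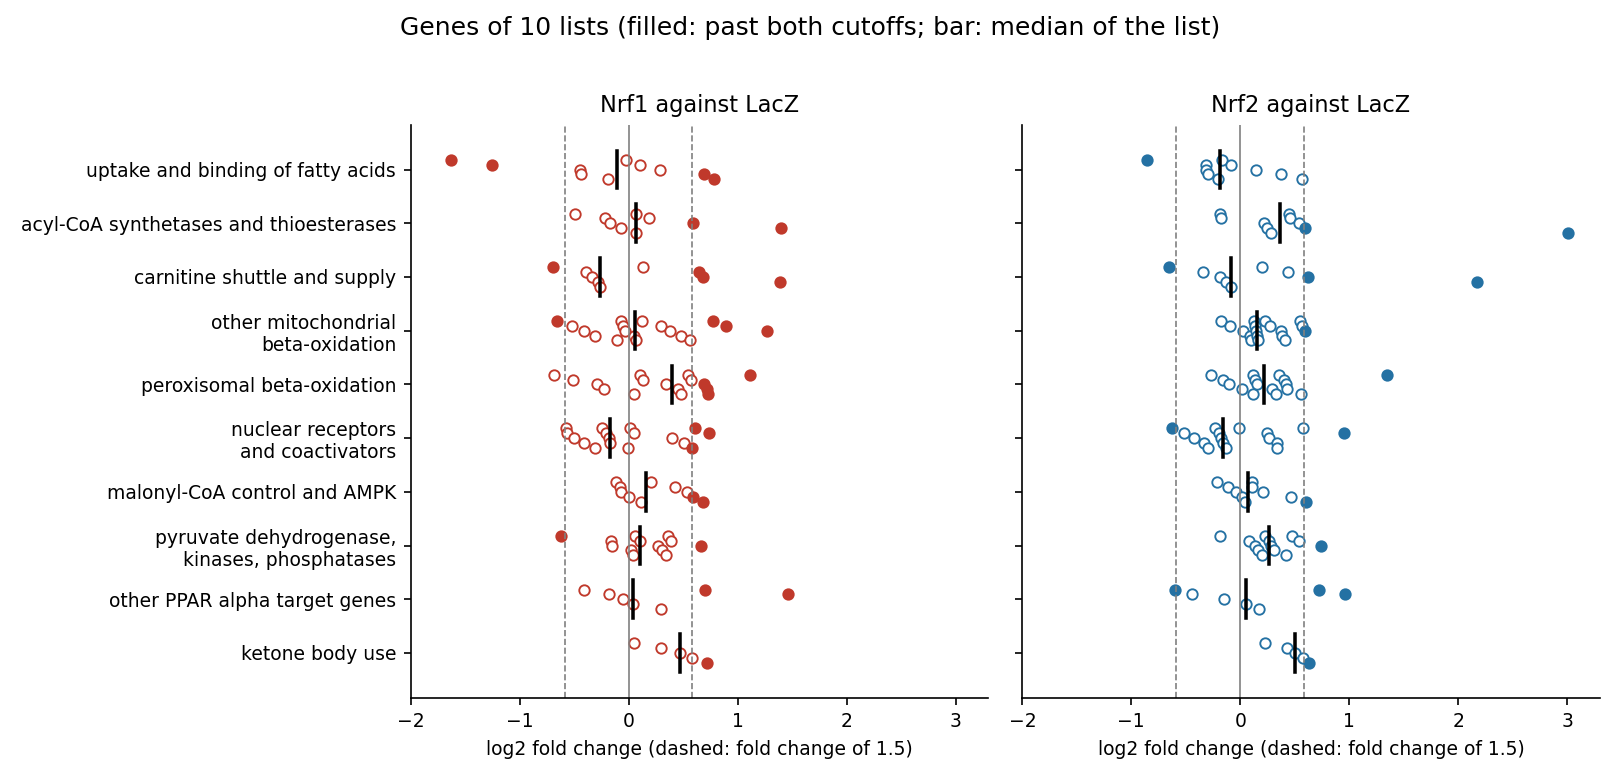
Log2 fold changes (horizontal axis) of the genes of 10 lists with Nrf1 (left) and Nrf2 (right) against LacZ, filled where the gene passed both cutoffs, with black bars for the median of a list and dashed lines at a fold change of 1.5. The peroxisomal list has a median of 0.40 with Nrf1, and *Acss1*, at 3.01 with Nrf2, is the farthest point.

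The switch between glucose and fat was covered by lists of malonyl-CoA control and pyruvate dehydrogenase. Of 10 genes of malonyl-CoA control and AMPK, the kinase that relieves the block of CPT1 by malonyl-CoA, 2 were upregulated with Nrf1 and 1 with Nrf2 (medians 0.16 and 0.07). These were *Prkaa2* (0.68, adjusted p = 2.18e-08) and *Prkag3* (0.59, adjusted p = 0.0102) with Nrf1 and *Prkab2* (0.60, adjusted p = 0.00154) with Nrf2, which encode AMPK subunits. *Prkag3* and *Prkab2* passed the fold-change cutoff only narrowly. *Prkab2* had 0.53 with Nrf1 (adjusted p = 0.00265) and *Prkaa2* 0.47 with Nrf2 (adjusted p = 7.17e-06), below the fold-change cutoff. *Prkag3* had -0.21 with Nrf2 (adjusted p = 0.377). Of 13 genes around pyruvate dehydrogenase, *Pdk2* was upregulated with both factors (0.67 and 0.74, adjusted p = 4.41e-06 and 5.58e-06) and *Pdk3* downregulated with Nrf1 (-0.62, adjusted p = 4.58e-05), with medians of 0.11 and 0.27. Both are kinases of the same family as PDK4, and *Pdk3* had -0.19 with Nrf2 (adjusted p = 0.129).

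Among other known PPARα targets, 7 of 17 passed the filter on low reads. *Plin2*, which coats lipid droplets, and *Cidea*, which acts on their fusion, were upregulated with both factors. *Cidea* had 436 ± 69.0 normalized reads in LacZ samples, 1196 ± 20.8 in Nrf1 samples and 843 ± 3.01 in Nrf2 samples (1.46 and 0.96, adjusted p = 4.58e-10 and 4.54e-07). *Plin2* changed by 0.70 and 0.73 (adjusted p = 3.24e-09 and 1.32e-08). *Angptl4*, an inhibitor of lipoprotein lipase, was downregulated with Nrf2 (-0.60, adjusted p = 0.00261) and had -0.06 with Nrf1 (adjusted p = 0.725). The medians of this list were 0.04 and 0.05. Of 5 genes for the use of ketone bodies, *Bdh1*, the first enzyme, was upregulated with both (0.72 and 0.63, adjusted p = 6.84e-08 and 5.87e-07), with medians of 0.47 and 0.51 for the list.

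In Nrf2 against Nrf1, the list genes that were higher were *Fabp5* (1.54, adjusted p = 8.37e-14), *Acss1* (1.596), *Slc22a4*, *Eci2*, *Amacr*, *Phyh* and *Pecr*, and those lower were *Hadh* (-1.14, adjusted p = 2.09e-11), *Decr2*, *Abcd4* and *Prkag3*.

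*Acadvl* and *Cpt2* had the widest ranges of level over the groups, 1.35 and 1.11 on the log2 scale. Likeness to their profiles was measured as the Euclidean distance between centered log2 levels over the 9 libraries, among 7796 genes outside the lists with a mean of at least 100 in every group. The nearest to *Acadvl* were *Psmd2* (distance 0.195), *Psmc5* (0.223) and *Psmd3* (0.253), which encode proteasome subunits. *Psmd2* had means of 5015, 11966 and 5968 normalized reads in LacZ, Nrf1 and Nrf2 samples. The nearest to *Cpt2* were *Keap1* (0.209), whose protein binds Nrf2, *Alas1* (0.211), the first enzyme of heme synthesis, and *Cep76* (0.215), a centrosomal protein. *Keap1* had means of 491, 983 and 841.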

How the data were processed

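RNA of 9 libraries of infected NRVMs, 3 per group, was sequenced by the authors. The submitters' processing notes name FastQC 0.11.4, HISAT2 2.0.4, SAMtools 0.1.18, featureCounts 1.6.0 and edgeR 3.20.5 with Rnor_6.0; the paper's methods state that duplicate reads were removed. The organism label names mouse, whereas the cell labels and the build name rat. The authors deposited 3 tables, 1 per pair of groups, whose signal is a group's mean of reads divided by size factors. Their fold change and p-value columns were not used, and 0 columns of single samples were left unused.

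Each mean is a weighted sum of 3 whole read numbers. Most genes of a group stand in 2 tables with different weights, and the rest were solved from 1 table. This gave the reads per library for 99.9% of genes. Size factors recomputed by the median of ratios from these reads differed by at most 0.0096%. In simulated means, all 14804, 14804 and 14973 genes were solved correctly for LacZ, Nrf1 and Nrf2. These were genes already recovered, each given 2 means, so solving from 1 table was not simulated. Recovered libraries carry no sample title. Genes above 1 CPM in at least 3 of the 6 libraries of a table were tested with limma 3.58.1 (R 4.3.3) on log2(normalized reads + 0.5) with a mean-variance trend. Fold changes are on that scale, with 4 residual degrees of freedom before moderation. Levels used size factors recomputed over 9 libraries. In data simulated for Nrf1 against LacZ, 161 of 200 genes changed 1.5-fold and 186 of 200 changed 2-fold passed the adjusted p with the right sign. Only 200 genes were changed there, at a preset spread, whereas 66.7% of all genes passed in the real comparison. The fold-change cutoff was not applied, so these counts do not hold for calls at both cutoffs. The edgeR and DESeq2 tests were not run on the recovered reads. Such count tests were planned only for deposited counts, and the deposited unit is a normalized mean.

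The 10 genes and the lists were chosen with earlier results of these data known. Named beside the 10 genes were, per list and comparison with LacZ, up to 4 called genes with the largest change and a mean of at least 100, all called genes of lists with at most 2, and the 3 nearest profiles. *Slc22a4*, *Decr2*, *Pparg*, *Prkag3*, *Angptl4*, *Esrra*, *Ppargc1a*, *Ppargc1b* and all list genes of Nrf2 against Nrf1 were named after their values were seen. Of the called list genes, 1 is not reported here by name. Alternatives were another fold-change or p cutoff, no filter, a pseudocount of 5, scaling to total reads, re-centring on the median gene, 1 fit of all libraries, voom, and leaving out each library.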

Additional observations from a re-analysis of the deposited data

How the results depend on the processing

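The calls of the 10 genes at both cutoffs depended mainly on the fold-change cutoff. With Nrf1 against LacZ, 3 genes were called, 2 at a fold change of 2, where *Cd36* was lost, and 8 with no fold-change cutoff. With Nrf2 against LacZ, 1 gene was called, 0 at a fold change of 2, 8 with no fold-change cutoff, and between 1 and 2 when a library was left out. With Nrf2 against Nrf1, 3 were called, 1 at a fold change of 2 and 8 with no cutoff. For the lists, the 28, 16 and 11 called genes became 7, 3 and 3 at a fold change of 2 and 77, 72 and 75 with no cutoff. With Nrf1, leaving out 1 library gave log2 fold changes between -0.21 and 0.10 for *Ppara* and between -0.059 and 0.033 for *Pdk4*, so that their signs changed. With Nrf2, that of *Cpt1b* turned to -0.034 under scaling to total reads. None of these had passed the adjusted p. *Ppara* in Nrf2 against Nrf1 fell below a fold change of 1.5 with voom (0.58), a pseudocount of 5 (0.54) and total reads (0.58). Its 23 to 78 reads limit what can be said of it, and its adjusted p in Nrf2 against LacZ rose above 0.05 in 1 fit of all libraries (0.0566), with voom (0.051), with no filter (0.0711) and under total reads (0.092). The adjusted p of *Acadl* in Nrf2 against Nrf1 also rose above 0.05 with no filter (0.052) and after re-centring (0.0702). No paired analysis was possible because the recovered libraries cannot be tied to the replicate numbers of the titles.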
